A study of Oreochromis niloticus with 6 samples.

Results

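Cytokines are small secreted proteins by which cells of the immune system, blood vessels and tissues signal to each other, and chemokines are the cytokines that steer migrating leukocytes. The transcripts described here are those of cytokines, chemokines and their receptors in liver of GIFT, a strain of Nile tilapia (Oreochromis niloticus) bred for faster growth in farms. They were the loci that the deposited table assigns to the KEGG pathway of cytokine and receptor interaction, or whose symbol begins with ccl, cxcl, ccr, cxcr or il and a digit, or with lect2. A level of at least 1 FPKM (fragments per kilobase of transcript, scaled to the mapped fragments of the library) in 1 or more libraries was required, and epoa was left out by rule. Of 31872 loci in the table, 187 met the name or pathway rule and 102 of these reached the level, 86 through the pathway and 16 through the symbol alone. The 3 members nearest the limit on the inside peaked at 1.03 FPKM (CXCR5), 1.05 FPKM (ENSONIG00000010316) and 1.08 FPKM (a ccr12a copy, MSTRG.20353), and on the outside ENSONIG00000003653 peaked at 0.997 FPKM, ENSONIG00000011230 at 0.962 FPKM and bmpr1bb at 0.902 FPKM.

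Liver RNA was sequenced in 6 libraries, 3 of a control group (CG) and 3 of a hypoxia group (HG), sampled at 96 h. The CG libraries came from tanks kept at a dissolved oxygen level of 5 mg/L, and the labels of the HG libraries give 0.7 to 0.8 mg/L, reached by passing nitrogen gas into the water. On the oxygen level of the HG tanks and on how many fish a tank held, the labels and the paper differ. It is not stated whether 1 fish or a pool made up a library, so the p-values measure the spread between these libraries only. Fish of both groups were fasted before the experiment and anesthetized with MS-222 before sampling. Neither genotype beyond the strain nor age is given in the sources used here.

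A cytokine binds a receptor on the surface of the target cell, which hands the signal on through a kinase of its own (the receptors of vascular, platelet-derived and hepatocyte growth factors), through JAK kinases and STAT factors (interleukin, interferon, growth hormone and prolactin receptors), through SMAD factors (activin, BMP and TGF-beta receptors), through NF-kB (tumor necrosis factor and interleukin 1 receptors) or through G proteins (chemokine receptors). In liver, hepatocytes answer interleukin 6 type cytokines with acute phase proteins. Endothelial cells of the sinusoids carry the VEGF receptors, and resident macrophages depend on the receptor for colony stimulating factor 1 and interleukin 34. RNA was taken from whole liver, so fewer cells of a type and less RNA per cell cannot be told apart.

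The libraries of a label resembled each other more than those of the other label, with Pearson correlations of 0.873 to 0.901 within CG, 0.868 to 0.918 within HG and 0.661 to 0.786 between them. Among 9 loci of genes known to be induced by low oxygen, including egln3, ddit4 and ldha, 8 fell and only pdk1 rose in the libraries labelled HG. Of all tested loci 9.54% fell and 7.03% rose. The summed level of the 9 loci was 1275 to 1673 FPKM in CG and 92.2 to 105.5 FPKM in HG, opposite to the direction known for low oxygen. Every direction below is that of the libraries as labelled. Hepatocyte markers summed to 25480 to 38900 FPKM in CG and to 52110 to 64770 FPKM in HG. Of 10 tested loci 3 (30.0%) were higher, beside 7.03% of all tested loci. Bile duct markers summed to 158.5 to 247.3 FPKM in CG and to 67.4 to 100.3 FPKM in HG. Of 3 tested loci 2 (66.7%), epcam and krt18, were lower, beside 9.54% of all tested loci. Most of each bile duct sum came from krt18 alone, at 218.3, 137.4 and 182.8 FPKM in CG and 89.7, 57.1 and 71.5 FPKM in HG. The part of these markers in the results below was not tested. Exocrine pancreas enzymes summed to 850 to 1825 FPKM in CG and to 69.2 to 512 FPKM in HG. CG-1 was the most deeply sequenced library by the steps of its low values, and the other 5 reached 0.711 (HG-1) to 0.928 (HG-3) of its depth.

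More cytokine and receptor loci fell than rose in the libraries labelled HG. Of the 102 members, 84 had a mean of at least 1 FPKM and were tested with limma on log2(FPKM + 1), a scale that understates the change of weakly expressed genes. A locus was called where p after adjustment was under 0.05 and the log2 fold change reached 1 in either direction. By this rule 3 members were higher in HG, where 7.03% of all 16423 tested loci were higher, and 12 members were lower, where 9.54% of all tested loci were lower. These counts are 3.57% and 14.3% of the tested members. The median log2 fold change was -0.55 over the tested members and -0.14 over all tested loci, and 64 of the 84 estimates were below 0. Scaling the libraries by median of ratios moved the median of all loci to 0.02 and that of the members to -0.40, with 55 of 82 estimates below 0. Among the tested members, 19 had a mean under 1 FPKM in one group, and 4 of these were called. The 18 members that were not tested peaked between 1.03 and 2.08 FPKM.

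Of the 15 called members, 8 kept their call whichever single library was left out, and 7 lost it in at least 1 such fit. A linear model fitted to each locus alone, after the manner of the Ballgown program used in the study, has 3 residual degrees of freedom. It called 0 of the 84 members, with 20 at an unadjusted p under 0.05, and of all 16423 tested loci it called 2 higher and 0 lower. Limma gave 38 members (45.2%) at an unadjusted p under 0.05, and 36.6% of all tested loci.

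**Figure D1:**
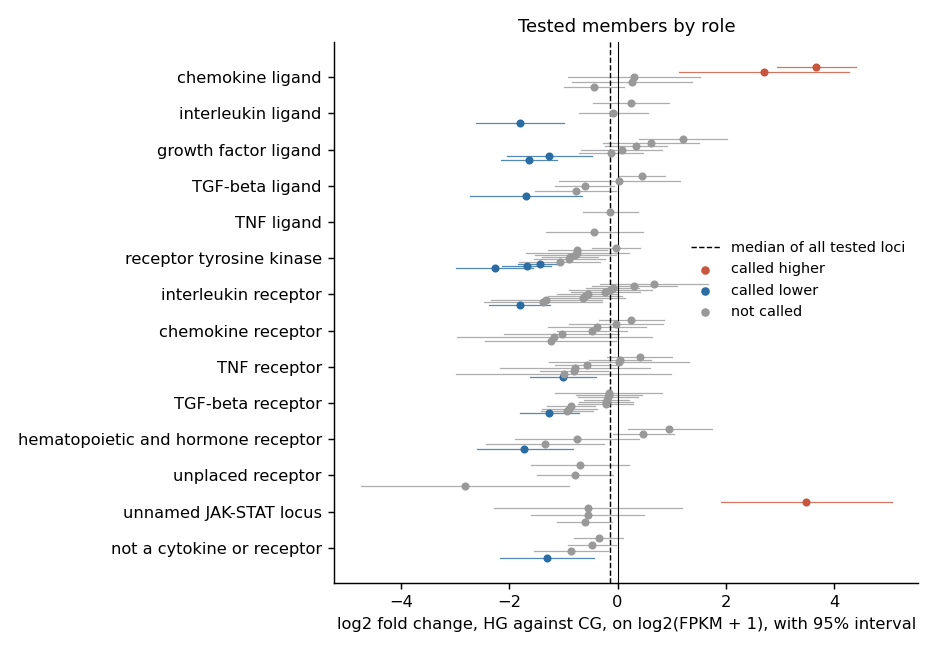
Log2 fold change of HG against CG on log2(FPKM + 1), with its 95% interval, for each of the 84 tested members, set out by role and coloured by call. The 3 members called higher are ccl19a.1, LECT2 and 1 unnamed locus. LECT2, a leukocyte chemotaxin, is drawn in the row of the chemokine ligands. Every called member placed among the receptors lies to the left of 0.

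The ligands moved in both directions: of 22 tested, 2 (9.09%) rose and 4 (18.2%) fell, beside 7.03% and 9.54% of all tested loci. Those that rose were both attractants of leukocytes. LECT2 (MSTRG.9091), a leukocyte chemotaxin that the liver secretes, was at 6.62, 5.00 and 5.57 FPKM in CG-1 to CG-3 and at 99.6, 109.6 and 54.9 FPKM in HG-1 to HG-3. Its lowest HG library was far above its highest CG library, with a log2 change of 3.67 (standard error 0.31, adjusted p = 0.0013). A second LECT2 copy shares its locus (MSTRG.12175) with bbs1 in the table, and since its name begins with bbs1 it was no member. That locus was much more abundant, at 721, 2293 and 1327 FPKM in CG and 704, 598 and 1952 FPKM in HG, and its groups overlapped (log2 fold change -0.47, 95% interval -1.83 to 0.88). Copies marked as 1 of many in the table may share reads.

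ccl19a.1 (MSTRG.7036), a homolog of the mammalian chemokine that draws lymphocytes and dendritic cells through CCR7, was at 11.3, 9.64 and 9.32 FPKM in CG and at 31.6, 50.9 and 217.7 FPKM in HG. The CG libraries lay close together and the HG libraries spread widely, HG-3 standing highest. The log2 fold change was 2.70 (standard error 0.66, adjusted p = 0.0321). The call was lost when CG-1, CG-2, CG-3 or HG-2 was left out, and the log2 fold change over all 6 such fits ran from 1.90 to 3.27 with adjusted p from 0.0188 to 0.0811. Its receptor ccr7 was near the limit of the test, at 0.989, 1.22 and 1.43 FPKM in CG and at 0.876, 0.0278 and 1.54 FPKM in HG (log2 fold change -0.38, 95% interval -1.28 to 0.53).

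The other chemokine ligands were weakly expressed and none was called. ccl20b, which in mammals draws cells bearing CCR6, was at 4.19, 3.36 and 4.86 FPKM in CG and at 1.92, 3.16 and 3.43 FPKM in HG, with a single HG value inside the CG range. cxcl12a, the ligand of CXCR4, was at 1.34, 0.761 and 5.95 FPKM in CG and at 3.84, 2.01 and 2.70 FPKM in HG, and the CG libraries alone spanned all 3 HG values. ccl35.1 lay between 0.193 and 2.82 FPKM, with overlapping groups, and ENSONIG00000010316 and the locus cxcl12b (MSTRG.12694) were not tested.

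Among interleukins, 3 of the 4 members carried the symbol il34, the cytokine that maintains tissue macrophages by binding the receptor CSF1R. MSTRG.2169, the only one of them that holds an annotated Ensembl transcript, was at 11.95, 5.64 and 4.30 FPKM in CG and at 0.961, 1.36 and 1.303 FPKM in HG. All HG values lay below all CG values, and the log2 fold change was -1.81 (standard error 0.34, adjusted p = 0.0143). Without HG-1 the call was lost, and the adjusted p reached 0.0566. The neighbouring assembled loci MSTRG.2170 (0.941 to 2.25 FPKM) and MSTRG.2171 (0.552 to 1.98 FPKM) overlapped between groups, with log2 fold changes of -0.08 and 0.24. RefSeq lists 1 il34 gene in this species, so the 3 loci may be pieces of it. The macrophage receptor csf1ra was level, at 4.37, 3.38 and 3.57 FPKM in CG and at 3.70, 3.10 and 4.19 FPKM in HG (log2 fold change -0.03, 95% interval -0.48 to 0.42). Macrophage markers, csf1ra among them, summed to 47.7 to 53.7 FPKM in CG and to 37.1 to 63.3 FPKM in HG. Of 6 tested loci 1 (16.7%), mafb, was lower, beside 9.54% of all tested loci. The part of these markers in the il34 result was not tested. il10, the cytokine that restrains inflammation, stayed at or below 1.15 FPKM and was not tested.

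Of 7 tested growth factor ligands, 2 (28.6%) fell, beside 9.54% of all tested loci, and none passed the test upward. pgfb (MSTRG.15920), a placental growth factor that binds the VEGF receptor flt1, was at 3.88, 2.83 and 3.37 FPKM in CG and at 0.309, 0.339 and 0.564 FPKM in HG. The groups were far apart, with a log2 change of -1.63 (standard error 0.22, adjusted p = 0.0045), and the call held without any one library. pdgfba (MSTRG.24594), a platelet-derived growth factor B chain that recruits the cells around vessels, was at 11.4, 4.66 and 5.19 FPKM in CG and at 1.84, 2.76 and 1.96 FPKM in HG. The groups did not overlap, although CG-1 stood well above the other CG libraries, and the log2 fold change was -1.26 (standard error 0.33, adjusted p = 0.0396). This call was lost without CG-1, CG-3, HG-1, HG-2 or HG-3, with adjusted p from 0.0467 to 0.122 over the 6 fits.

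The growth factors with the highest levels did not pass the test. mst1, the macrophage stimulating protein that hepatocytes secrete, had the highest mean of all members, at 96.6, 172 and 268 FPKM in CG and at 235, 243 and 285 FPKM in HG. The CG libraries differed almost 3 times among themselves, and the interval of its log2 fold change of 0.62 ran from -0.27 to 1.51. HGF, the hepatocyte growth factor, was at 5.62, 8.41 and 10.6 FPKM in CG and at 7.01, 8.03 and 6.70 FPKM in HG, with all HG values inside the CG range (log2 fold change -0.12, 95% interval -0.72 to 0.48). egf, a weakly expressed ligand of the EGF receptor, was at 0.0345, 0.185 and 0.482 FPKM in CG and at 0.977, 1.96 and 2.82 FPKM in HG. Its groups did not overlap, yet it missed the threshold (log2 fold change 1.21, standard error 0.35, adjusted p = 0.0505). It passed with median of ratios scaling (adjusted p = 0.0361), upper quartile scaling (0.0392) or limma without the trend (0.0353). It missed the threshold with pseudocounts of 0.1 (0.0538) and 0.5 (0.0516), no minimum (0.081) and the replicate number as a block (0.0858). Without CG-1, CG-2, CG-3 or HG-1 it was not called, and without HG-2 or HG-3 its mean was too low for the test.

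Activins and bone morphogenetic proteins (BMPs) are dimeric ligands of the TGF-beta family that act on growth and regeneration of liver. inhbab (MSTRG.25792), which encodes the beta A subunit of activin and inhibin, was at 21.1, 15.7 and 16.9 FPKM in CG and at 10.2, 4.23 and 2.36 FPKM in HG. The HG libraries spread over a wide range but stayed below the CG libraries (log2 fold change -1.69, standard error 0.43, adjusted p = 0.0372). The call was lost without CG-1, CG-2, CG-3, HG-2 or HG-3, with adjusted p from 0.0162 to 0.106 over the 6 fits. INHBE, the activin subunit that is made mainly in liver, had the highest CG mean of the member ligands after mst1, at 26.9, 66.5 and 82.5 FPKM there and at 47.4, 41.0 and 81.5 FPKM in HG. Its groups overlapped entirely (log2 fold change 0.03, 95% interval -1.09 to 1.15). bmp2b and bmp6, the latter a liver endothelial regulator of hepcidin in mammals, had lower values in every HG library than in any CG library, at log2 changes of -0.61 and -0.77 (adjusted p = 0.108 and 0.131), and bmp16 had higher values, at 0.45 (adjusted p = 0.119).

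Tumor necrosis factor ligands were near the limit of detection. tnfsf13b, a survival factor for B cells, was at 4.11, 0.949 and 1.46 FPKM in CG and at 1.102, 0.950 and 1.46 FPKM in HG, and tnfsf12 lay between 1.05 and 1.75 FPKM. Neither was called. tnfb peaked at 1.26 FPKM and a tnfsf10 copy (MSTRG.1965) at 1.74 FPKM, and both were left untested, while tnfa, at no more than 0.594 FPKM, did not reach the level set for members.

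**Figure D2:**
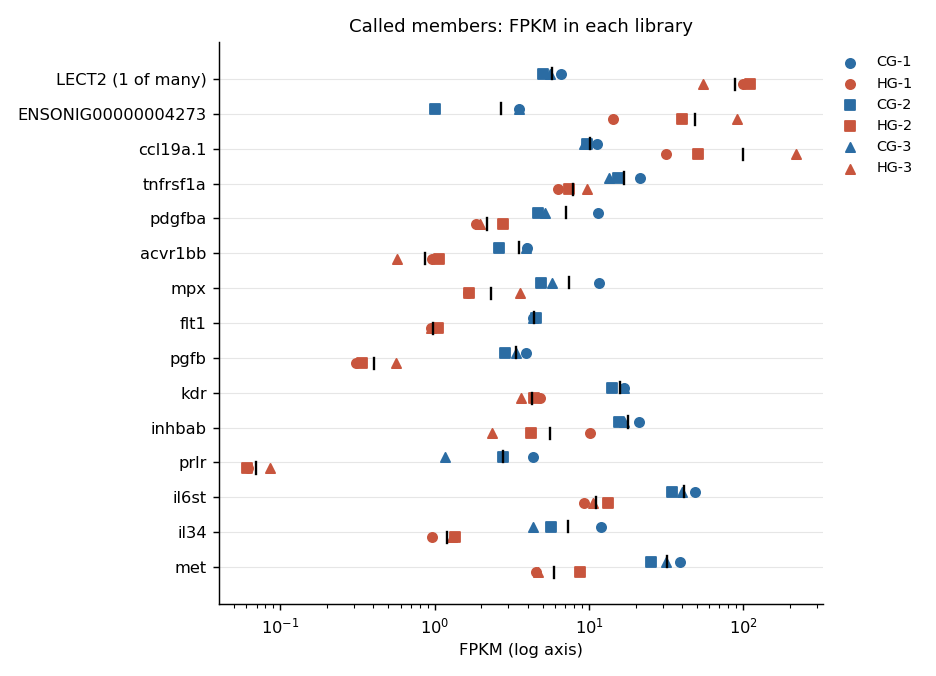
FPKM on a log axis in each library for the 15 called members, ordered by log2 fold change, with CG in blue, HG in red, the marker shape giving the library number and a black tick at each group mean. The call itself favours groups that lie apart, and those of no called member overlap. Groups lie apart in some members that were not called as well. ccl19a.1 and ENSONIG00000004273 spread most within HG, while flt1 and kdr are tight in both groups.

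Members placed as receptors were called only in the downward direction. Of 54 tested, 7 (13.0%) fell and 0 rose by limma, where 9.54% of all tested loci fell and 7.03% rose. At an unadjusted p under 0.05, 22 were lower and 1 (epor) was higher, and of all tested loci 22.3% were lower and 14.3% higher. The median log2 fold change over these 54 was -0.74. Unnamed loci that are linked to JAK and STAT signaling were placed neither as ligands nor as receptors. They are outside these counts, and 1 of them rose.

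Of 10 tested receptor tyrosine kinases 3 (30.0%) fell, beside 9.54% of all tested loci. Their median log2 fold change was -0.88, beside -0.14 over all tested loci, and all 10 estimates were below 0. csf1ra, the one nearest 0, turned above 0 with median of ratios or upper quartile scaling and without CG-1 or HG-2. met (MSTRG.11875), the receptor of hepatocyte growth factor, was at 38.9, 25.2 and 31.6 FPKM in CG and at 4.53, 8.69 and 4.67 FPKM in HG, a mean 5.35 times lower in HG. No HG library came near a CG library, and the log2 fold change was -2.27 (standard error 0.30, adjusted p = 0.00447). kdr (MSTRG.2609), a VEGF receptor of endothelial cells, was at 16.8, 14.2 and 16.7 FPKM in CG and at 4.801, 4.40 and 3.63 FPKM in HG (log2 fold change -1.68, standard error 0.20, adjusted p = 0.00304). flt1 (MSTRG.6010), the VEGF receptor that also binds placental growth factor, was at 4.31, 4.51 and 4.33 FPKM in CG and at 0.946, 1.05 and 0.948 FPKM in HG (log2 fold change -1.44, standard error 0.17, adjusted p = 0.00304). Both VEGF receptors were tight within each group, and all 3 calls held without any one library.

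The remaining vascular receptors were not called. kdrl, a second VEGF receptor of the kdr type in fish, was at 9.54, 8.07 and 8.69 FPKM in CG and at 3.46, 5.71 and 3.99 FPKM in HG, with an adjusted p of 0.0344 but a log2 fold change of -0.88. It was called without HG-2 (-1.05, adjusted p = 0.0314) and with a pseudocount of 0.1 (-1.01, adjusted p = 0.0366). flt4, the receptor of VEGF-C on lymphatic vessels, was at 1.78, 1.55 and 1.99 FPKM in CG and at 0.484, 0.654 and 0.852 FPKM in HG (log2 fold change -0.74, adjusted p = 0.0652). vegfc itself lay between 0.602 and 1.41 FPKM, with higher values in every HG library (log2 fold change 0.34, 95% interval -0.24 to 0.91). The platelet-derived growth factor receptors pdgfra and PDGFRB had log2 changes of -0.89 and -0.78 (adjusted p = 0.0652 and 0.124). The groups of PDGFRB overlapped, CG-2 being at 2.18 FPKM and HG-3 at 2.26 FPKM. Without CG-2 it was called (-1.12, adjusted p = 0.0274), and in no other alternative.

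The summed level of 9 loci of endothelial markers was lower in every HG library, at 26.4 to 30.6 FPKM in CG and 12.01 to 17.0 FPKM in HG. Of 6 tested loci 2 (33.3%) fell, cdh5 and a stab1 locus, beside 9.54% of all tested loci. tie1 was at 3.03 to 4.41 FPKM in CG and 3.44 to 5.52 FPKM in HG. The list contains kdrl, which is also a member, at 8.07 to 9.54 FPKM in CG and 3.46 to 5.71 FPKM in HG. The part of these markers in the fall of kdr and flt1 was not tested. Markers of stellate cells and fibroblasts, PDGFRB among them, summed to 6.17 to 19.7 FPKM in CG and to 8.54 to 14.8 FPKM in HG. Of 5 tested loci 0 were called, beside 9.54% of all tested loci lower and 7.03% higher.

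EGFR (MSTRG.20873), which conveys growth signals to hepatocytes, was at 38.2, 30.4 and 40.4 FPKM in CG and at 20.8, 21.1 and 10.5 FPKM in HG. Its groups were apart, and its log2 fold change of -1.07 had an adjusted p of 0.0544 (0.0303, a call, when the minimum mean was raised to 10 FPKM). A locus named egfra (MSTRG.511), which the rule does not take in, had higher values in every HG library, at 3.59 to 7.11 FPKM in CG and 8.59 to 10.2 FPKM in HG (log2 fold change 0.80, adjusted p = 0.0691).

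**Figure D3:**
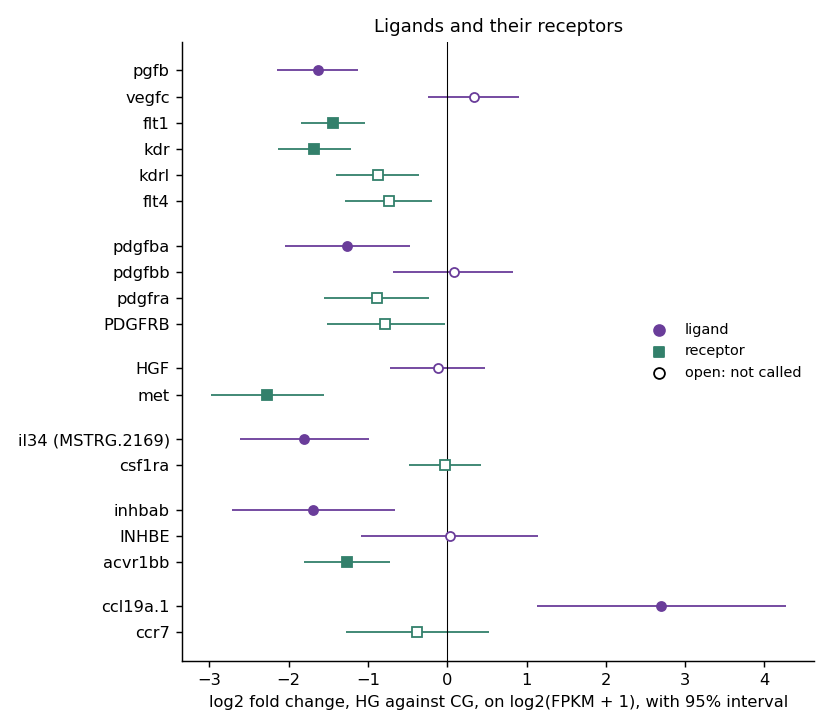
Log2 fold change of HG against CG on log2(FPKM + 1), with its 95% interval, for ligands (circles) above their receptors (squares) in 6 signaling systems, with open symbols for members that were not called. pgfb lies below 0 together with flt1 and kdr, and inhbab with acvr1bb, whereas HGF is near 0 beside a low met, and csf1ra is near 0 beside a low il34.

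Of 11 tested interleukin receptors, 1 (9.09%) fell, near the 9.54% of all tested loci. il6st (MSTRG.2272) encodes gp130, the chain through which interleukin 6, leukemia inhibitory factor and their relatives signal, and it had the highest CG mean of the interleukin receptors. It was at 48.5, 34.6 and 40.3 FPKM in CG and at 9.20, 13.4 and 10.6 FPKM in HG. The groups were widely separated, with a log2 change of -1.80 (standard error 0.24, adjusted p = 0.00438), and the call held without any one library.

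The chains that pair with gp130 did not all follow it. lifra, the receptor of leukemia inhibitory factor, was at 16.4, 13.6 and 15.9 FPKM in CG and at 12.1, 15.7 and 15.4 FPKM in HG, overlapping groups with a log2 fold change of -0.09 (95% interval -0.58 to 0.40). cntfr, the binding chain for ciliary neurotrophic factor, was at 10.4, 22.2 and 33.9 FPKM in CG and at 37.9, 34.2 and 26.5 FPKM in HG (log2 fold change 0.68, 95% interval -0.32 to 1.68). il11ra had lower values in every HG library than in any CG library, at a log2 change of -0.60 (adjusted p = 0.181). ENSONIG00000002150 carries the same KEGG orthology entry as il6st, so it is annotated like gp130 itself and not as a chain that pairs with it. Its values were also lower in every HG library, but the change was smaller than that of il6st and not called (log2 fold change -0.55, adjusted p = 0.142).

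An unnamed receptor that the table annotates as an interleukin 1 type I receptor (ENSONIG00000016999) had the next highest CG mean. It was at 61.5, 29.2 and 19.8 FPKM in CG and at 17.3, 11.6 and 10 FPKM in HG, the groups apart but CG-1 more than double the other CG libraries (log2 fold change -1.32, adjusted p = 0.074). It was called without CG-3 (-1.67, adjusted p = 0.0467), with a minimum mean of 10 FPKM (adjusted p = 0.0453) and with the replicate number as a block (adjusted p = 0.0474). The other alternatives did not call it. il10rb, a shared chain of the interleukin 10 family receptors, was at 11.9 to 18.1 FPKM in CG and 6.93 to 14.9 FPKM in HG, and il17ra1b, a receptor of interleukin 17, at 5.89 to 13.1 FPKM in CG and 9.26 to 15.2 FPKM in HG, and both overlapped. il22ra2, a soluble decoy for interleukin 22, was at 3.66, 2.74 and 0.510 FPKM in CG and at 0.240, 0.00137 and 0.213 FPKM in HG. Its groups did not overlap, but CG-3 was close to HG and the adjusted p was 0.0779. Without CG-3 it was called (log2 fold change -1.87, adjusted p = 0.0184), and in no other alternative. Without CG-1 or CG-2 its mean was too low for the test.

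No chemokine receptor was called among 7 tested by limma, with 1 (ENSONIG00000004572) at an unadjusted p under 0.05. cxcr4a, the receptor of CXCL12 on leukocytes and progenitor cells, was at 6.59, 1.303 and 2.14 FPKM in CG and at 0.709, 0.675 and 1.23 FPKM in HG. Every HG value was below every CG value, though CG-2 and HG-3 almost met. ENSONIG00000004572, which the table annotates as a CXC chemokine receptor, was at 5.29, 0.630 and 1.43 FPKM in CG and at 0.170, 0.177 and 0.391 FPKM in HG (log2 fold change -1.23, adjusted p = 0.129). ccr9a, a receptor that guides lymphocytes to gut in mammals, was at 8.69 FPKM in CG-1 and at 1.86 FPKM or less in the other libraries. The larger of the ccr12a loci (MSTRG.20354) lay between 1.39 and 4.14 FPKM and cxcr3.2 between 1.18 and 2.54 FPKM, each with overlapping groups. Markers of T and NK cells, other than a perforin copy (PRF1, MSTRG.10653), peaked at no more than 1.45 FPKM in any library, and cd8a peaked at 0.484 FPKM. That perforin copy, the only locus of the list that was tested, fell. It was at 3.53, 2.98 and 5.58 FPKM in CG and at 0.437, 0.437 and 0.0127 FPKM in HG (log2 fold change -1.94, adjusted p = 0.00614).

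Of 8 tested receptors of the tumor necrosis factor family 1 (12.5%) fell, near the 9.54% of all tested loci. This was tnfrsf1a (MSTRG.13295), the main receptor for TNF. It was at 21.3, 15.5 and 13.6 FPKM in CG and at 6.33, 7.36 and 9.74 FPKM in HG, without overlap, with a log2 change of -1.01 (standard error 0.26, adjusted p = 0.0356). It stood at the limit of the call, which was lost without CG-1, CG-2, HG-1, HG-2 or HG-3 (log2 fold change -1.16 to -0.83 over the 6 fits, adjusted p 0.0496 to 0.121). ngfra, the low-affinity receptor of nerve growth factor, was at 3.34, 5.48 and 7.04 FPKM in CG and at 2.17, 2.40 and 2.92 FPKM in HG. Its groups did not overlap (log2 fold change -0.81, adjusted p = 0.0746). Without CG-1 it was called (-1.05, adjusted p = 0.0325), and in no other alternative. ENSONIG00000019189 and ENSONIG00000019190 were both nearly absent from HG-2, at 0.101 and 0.0166 FPKM, against 3.66 to 12.3 FPKM and 3.25 to 4.82 FPKM in the other 5 libraries.

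The receptors for activins, BMPs and TGF-beta are serine and threonine kinases that work as pairs of a type I and a type II chain. All 10 tested had estimates below 0, with 8 to 10 below 0 over the alternatives that tested all 10. Their median log2 fold change was -0.22, close to the -0.14 over all tested loci. With median of ratios scaling it was -0.07, beside 0.02 over all tested loci. acvr1bb (MSTRG.10845), an activin type I receptor, was at 3.99, 2.60 and 3.89 FPKM in CG and at 0.955, 1.06 and 0.573 FPKM in HG. The groups were well apart (log2 fold change -1.26, standard error 0.23, adjusted p = 0.0123), and the call held without any one library. The BMP receptors bmpr1aa and BMPR2 (MSTRG.26235) and the endothelial receptor acvrl1 had adjusted p-values of 0.022, 0.0308 and 0.0227 with log2 fold changes of -0.94, -0.89 and -0.86, short of the fold required for a call. Without CG-3 or with a pseudocount of 0.1 bmpr1aa was called (-1.05 and -1.03, adjusted p = 0.0335 and 0.0216), as was acvrl1 with pseudocounts of 0.1 and 0.5 (-1.19 and -1.01, adjusted p = 0.0227 and 0.0211). bmpr1aa was at 13.3, 14.8 and 10.9 FPKM in CG and at 6.97, 6.25 and 5.66 FPKM in HG. BMPR2 was at 19.8, 18.1 and 15.1 FPKM in CG and at 7.59, 10.3 and 9.41 FPKM in HG, and in both the groups were separate. TGFBR2 and tgfbr1a, the receptor pair of TGF-beta itself, overlapped between groups, at log2 fold changes of -0.18 and -0.16 (95% intervals -0.73 to 0.37 and -1.15 to 0.83).

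Among receptors of hormones and blood cell factors, prlr (MSTRG.14264), the prolactin receptor, was at 4.32, 2.77 and 1.17 FPKM in CG and at 0.0615, 0.0606 and 0.0852 FPKM in HG. The 3 HG libraries lay close together and far below CG, where the libraries differed by almost 4 times (log2 fold change -1.72, standard error 0.37, adjusted p = 0.0219). The call was lost without CG-2, HG-1, HG-2 or HG-3, with adjusted p from 0.0154 to 0.0706 over the 5 fits that kept it in the test. ghr, a growth hormone receptor and the most abundant member of this class, was at 12.3, 13.7 and 19.1 FPKM in CG and at 18.98, 23.8 and 20.3 FPKM in HG (log2 fold change 0.48, 95% interval -0.09 to 1.04). The other growth hormone receptor, ghr1, was at 6.12, 4.04 and 4.55 FPKM in CG and at 1.43, 6.74 and 1.25 FPKM in HG. HG-2 alone exceeded CG, and without HG-2 the log2 fold change moved from -0.75 (adjusted p = 0.306) to -1.32 (adjusted p = 0.0234). epor, the erythropoietin receptor, was at 1.68, 0.702 and 1.70 FPKM in CG and at 5.24, 3.71 and 2.10 FPKM in HG, without overlap (log2 fold change 0.96, adjusted p = 0.0802). Its ligand epoa was set aside by the rule and was at 4.42, 11.2 and 7.29 FPKM in CG and at 0.735, 0.335 and 0.460 FPKM in HG.

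Of 4 tested loci that the table links to JAK and STAT signaling but gives no symbol, 1 (25.0%) rose, beside 7.03% of all tested loci. ENSONIG00000004273 (MSTRG.5760), also placed by the table in Toll-like receptor signaling and natural killer cell cytotoxicity, was at 3.52, 0.998 and 3.51 FPKM in CG and at 14.4, 40.0 and 91.0 FPKM in HG. Its lowest HG value was about 4 times its highest CG value, and the log2 fold change was 3.49 (standard error 0.67, adjusted p = 0.0147). The call held without any one library. The other 3 tested, ENSONIG00000008531, ENSONIG00000008536 and ENSONIG00000008863, had log2 fold changes of -0.55, -0.61 and -0.55, and none was called.

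The rule also took in 5 loci that encode neither a cytokine nor a receptor of one. mpx (MSTRG.6837), the peroxidase of neutrophil granules, was at 11.7, 4.85 and 5.72 FPKM in CG and at 1.65, 1.66 and 3.59 FPKM in HG (log2 fold change -1.31, standard error 0.37, adjusted p = 0.0475). Its groups did not overlap, but the call was lost in each of the 6 fits without a library (adjusted p 0.0512 to 0.143). The others were an IL4I1 copy, an amino acid oxidase, and ergic1, fgfr1op and si:dkey-237i9.8, and none of these was called. Of 14 tested loci of neutrophil markers, mpx and csf3r included, 4 (28.6%) fell and 0 rose, beside 9.54% and 7.03% of all tested loci. ncf1, an oxidase subunit, and mmp9, a gelatinase of neutrophil granules, were among the 4 that fell, at log2 fold changes of -4.08 and -3.22. The summed level of that list was 1881 to 2203 FPKM in CG and 1820 to 3166 FPKM in HG, nearly all of it from lysozyme copies, and its part in the mpx result was not tested.

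Several receptors owed most of their CG mean to CG-1. csf3r, the receptor for the colony stimulating factor of neutrophils, was at 11.4 FPKM in CG-1, 2.88 FPKM in CG-2 and 3.11 FPKM in CG-3, and at 0.910, 1.32 and 1.74 FPKM in HG. Its groups were apart, but its log2 fold change went from -1.34 (adjusted p = 0.0832) to -0.80 (adjusted p = 0.0878) without CG-1. ENSONIG00000007203, annotated only as a receptor, was at 31.9 FPKM in CG-1, 2.72 FPKM in CG-2 and 2.97 FPKM in CG-3, and at 0.0373, 0.0707 and 0.255 FPKM in HG. It missed the threshold with all libraries (log2 fold change -2.81, adjusted p = 0.0514) and passed it without CG-1 (-1.78, adjusted p = 0.0208). In 6 members CG-1 was over 3 times the next highest library, against 1 in CG-2, 3 in HG-2 and 2 in HG-3.

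CG-1 held the highest value of 41 of the 84 tested members (48.8%) and of 32.5% of all tested loci. HG-1 held the lowest value of 33 tested members (39.3%) and of 24.7% of the tested loci with a single lowest value. With CG-1 left out, 2 members were higher and 9 lower of 77 tested, and with HG-1 left out, 3 were higher and 7 lower of 84. The counts over all loci fell as well, from 1155 higher and 1567 lower of 16423 with every library. They were 846 and 1078 of 16121 without CG-1, and 774 and 817 of 16625 without HG-1.

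**Figure D4:**
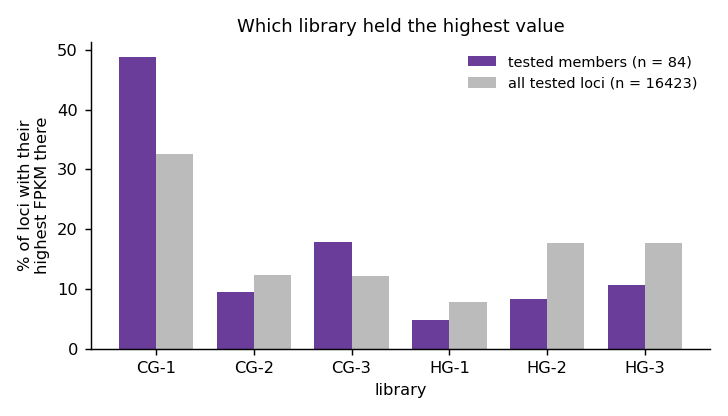
Share of loci, in percent, whose highest FPKM of the 6 libraries was found in each library, for the 84 tested members and for all 16423 tested loci. CG-1 takes 48.8% of the members and 32.5% of all loci, and HG-1 takes the smallest share of both.

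Genes that act downstream of these receptors were counted over a list of JAK, STAT, SOCS, NF-kB, TRAF, SMAD and G protein genes. Of 70 tested loci, 3 (4.29%) rose and 11 (15.7%) fell, beside 7.03% and 9.54% of all tested loci. Those that fell include a locus joining myd88 with cry-dash (MSTRG.1794) and one joining casp8 with catip (MSTRG.21309). Their levels cannot be assigned to myd88 or casp8 alone. Over the 70 tested loci of the list the median log2 fold change was -0.44, against -0.14 over all tested loci. The 3 that rose were stat1a and stat2, the transducers of interferon signals, at log2 fold changes of 2.95 and 2.67, and socs1b, an inhibitor of JAK kinases, at 1.81 (adjusted p = 0.0013, 0.00174 and 0.0206). stat3, through which gp130 signals, was at 98.3, 51.8 and 54.8 FPKM in CG and at 20.2, 17.8 and 14.8 FPKM in HG (log2 fold change -1.85, adjusted p = 0.00901). jak1, a kinase bound to gp130, fell, at a log2 fold change of -1.25 (adjusted p = 0.0301). Both loci of socs3b, a feedback inhibitor of gp130, fell, at -1.04 and -1.60 (adjusted p = 0.039 and 0.0378), and socs3a had a log2 fold change of -1.39 (adjusted p = 0.0563). nfkb2, an NF-kB subunit, and tnfaip3, the inhibitor of NF-kB that TNF induces, fell most in the list, at -3.34 and -3.62 (adjusted p = 0.00286 and 0.00492). smad7, the feedback inhibitor of TGF-beta receptors, fell, at a log2 fold change of -1.36 (adjusted p = 0.0134). The count of lower loci in the list was 7 without CG-1, 5 without HG-1, 6 without HG-2 and 5 without HG-3. Over all loci the count of lower loci went from 1567 to 1078, 817, 1252 and 1101 in these fits.

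**Figure D5:**
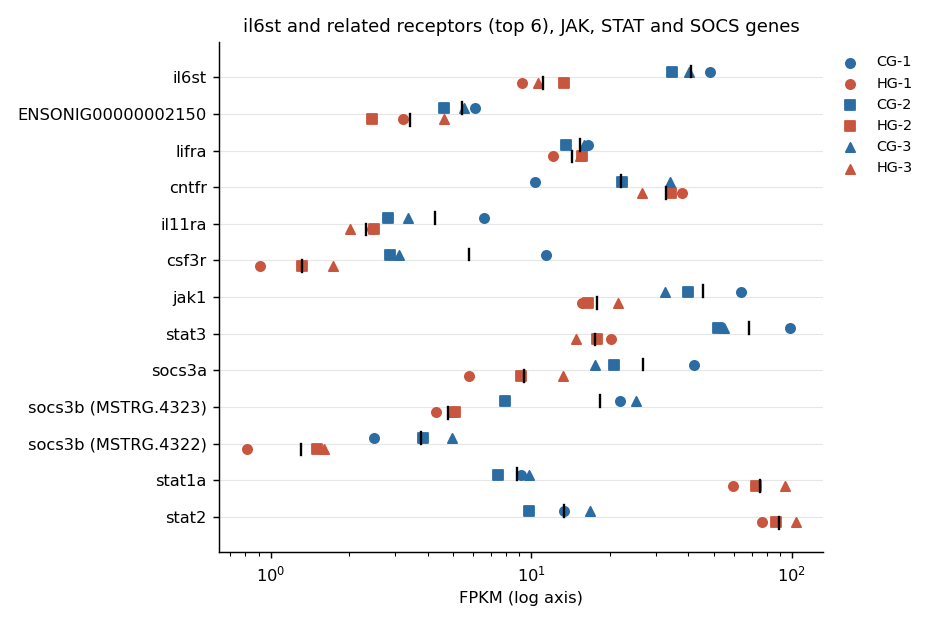
FPKM on a log axis in each library for il6st, 5 related receptors, and JAK, STAT and SOCS genes, with CG in blue, HG in red, the marker shape giving the library number and a black tick at each group mean. il6st, jak1, stat3 and both socs3b loci are lower in every HG library than in any CG library, lifra and cntfr overlap, and stat1a and stat2 are higher in every HG library.

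Liver genes that interleukin 6 is known to induce were listed, il6st and the socs3 genes among them, so the list is not separate from the results above. Of 19 tested loci, 0 were called higher by limma, with 1 at an unadjusted p under 0.05. Lower were 4 (21.1%), beside 9.54% of all tested loci. These were hpx, il6st and both socs3b loci, and of them only hpx was not already described. Over the 19 tested loci the median log2 fold change was -0.15, close to the -0.14 over all tested loci. hpx, the heme-binding hemopexin, was at 20250, 19840 and 22730 FPKM in CG and at 8625, 7890 and 5600 FPKM in HG (log2 fold change -1.53, adjusted p = 0.0041). The tested haptoglobin loci (hp) had estimates in both directions, and none was called. The most abundant, MSTRG.15428, was at 1158, 1319 and 883 FPKM in CG and at 1865, 1950 and 2070 FPKM in HG. It was short of the fold for a call (log2 fold change 0.83, adjusted p = 0.0333). MSTRG.8136 was at 231, 1566 and 851 FPKM in CG and at 548, 120 and 811 FPKM in HG. Its groups overlapped (log2 fold change -0.84, adjusted p = 0.54). MSTRG.8137, at no more than 4.53 FPKM, overlapped as well (log2 fold change -1.08, adjusted p = 0.14). hamp, which encodes hepcidin, spread from 55.1 to 626 FPKM within CG and from 1.25 to 112.6 FPKM within HG, and its groups overlapped. Loci of fibrinogen, of the complement genes C3 and c9 and of ceruloplasmin (cp) overlapped between the groups, and none was called. The count of lower loci in this list was 2 without CG-3, HG-1 or HG-2. Over all loci it went from 1567 to 1408, 817 and 1252 in these fits.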

How the data were processed

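The authors mapped the reads with HISAT and assembled and quantified transcripts with StringTie. The genome build and tool versions are not given in the sources used here. The deposited FPKM values were used without rescaling. FPKM carries no read counts, so a count test was not run, and low levels rest on few fragments.

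The comparison of HG with CG used limma 3.58.1 (R 4.3.3) on log2(FPKM + 1), letting the prior variance follow the mean level (2.86 prior degrees of freedom), for the 16423 loci whose mean reached 1 FPKM. p was two-sided and Benjamini-Hochberg adjusted over all of them. Tables and figures used Python 3.11.15, numpy 2.4.6, pandas 2.3.3, scipy 1.17.1 and matplotlib 3.10.9.

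The text names every called member, in each role up to 3 further members with the highest mean FPKM, every LECT2 copy and the tested partners of called members. Others were named after their values were seen. The members and the gene lists were chosen with earlier results of these data known. Of 102 members, 83 had a symbol, of which 57 matched RefSeq. No sequence is printed. 1 chemokine receptor locus is counted but not described here.

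Alternatives were pseudocounts of 0.1 and 0.5, testing all loci or only those whose mean reached 10 FPKM, median of ratios or upper quartile scaling, limma without the trend, a Ballgown-style model, the replicate number as a block, and leaving out each library.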

Additional observations from a re-analysis of the deposited data

How the results depend on the processing

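No call of a member changed direction under any alternative. Apart from the Ballgown-style model and the fits without a library, members called higher and lower numbered from 2 to 4 and from 7 to 16. The 7 lower came with a mean of at least 10 FPKM, where 18 members were tested. The 16 lower came with a pseudocount of 0.1, which called 1292 higher and 1895 lower of all 16423 tested loci. The Ballgown-style model called 0 members in either direction, 2 higher and 0 lower of all loci, and 0 in either direction in the downstream, acute phase and low oxygen lists. A mean of at least 10 FPKM gave 529 higher and 614 lower of 3319 loci, 7 lower in the downstream list and 0 higher in the low oxygen list.

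No minimum gave 826 higher and 1080 lower of 31872 loci, with 5 lower loci in the downstream list and 1 in the acute phase list. Median of ratios scaling gave 1 higher and 2 lower acute phase loci. That scaling called 1502 loci higher and 1209 lower, upper quartile scaling 1410 and 1296, against 1155 and 1567 without scaling, and it moved the median log2 fold change of all loci from -0.14 to 0.02. Under it 4 members were higher and 9 lower, and 3 calls (tnfrsf1a, inhbab and mpx) were lost.

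Leaving out each library gave 2 to 3 members higher and 7 to 12 lower, 774 to 969 loci higher and 817 to 1408 lower, 2 to 3 downstream loci higher and 5 to 10 lower, and 2 to 4 acute phase loci lower. Libraries with the same replicate number did not deviate together (r = 0.0365, -0.102 and -0.081), so the numbers were not taken to pair the libraries. With the replicate number as a block, 3 members were higher and 9 lower, 11 of these 12 calls being shared with the fit without it. In that fit 7 downstream and 2 acute phase loci were lower. Of all 16423 tested loci, 867 were higher and 1093 lower with the block, against 1155 and 1567 without it. The cause of these differences was not tested. FPKM without counts gives no depth for a single value, and members under 1 FPKM in one group are the least certain.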

Other observations

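Some members were found in essentially 1 library. CXCR5, the receptor that guides B cells to follicles, was listed at 0 in 5 libraries and at 1.03 FPKM in HG-2, and il1rapl1a was at 1.29 FPKM in HG-2 and at no more than 0.146 FPKM elsewhere. bmpr2a was at 1.101 FPKM in HG-2 and at no more than 0.261 FPKM elsewhere. CXCR5, il1rapl1a and bmpr2a are members through HG-2 alone, since the rule asks for 1 FPKM in only 1 library. acvr2ab and kita, the stem cell factor receptor, were at 1.36 and 1.60 FPKM in HG-2 and at 0.120 and 0.272 FPKM or less in HG-1 and HG-3, while CG lay between 0.792 and 1.04 FPKM and between 0.920 and 2.27 FPKM. In 6 members HG-2 was less than the next lowest library divided by 3, ccr7, il10, il22ra2 and an IL4I1 copy among them, compared with 1 member for each of the other 5 libraries. The loci kita, kdr and pdgfra follow each other closely in the RefSeq gene order, and HG-2 stood apart from HG-1 and HG-3 for kita alone.

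cxcr2, a neutrophil chemokine receptor, peaked at 0.269 FPKM and faslg, the Fas ligand, at 0.656 FPKM. The receptors of the abundant ligand mst1 were at no more than 0.199 FPKM (mst1ra) and 0.0427 FPKM (mst1rb) in any library. cd79a, a B cell receptor subunit, rose from 0.224, 0.0405 and 0.276 FPKM in CG to 1.92, 2.30 and 3.29 FPKM in HG (log2 fold change 1.56, adjusted p = 0.0106). Of the 7 B cell marker symbols listed, 2 loci were found, and cd79a was the only 1 tested. The other, pax5, peaked at 0.0237 FPKM, so the rise rests on 1 weakly expressed locus.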
